A study of Mus musculus with 2 samples.

Results

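The genes described here encode the proteins of the cytosolic ribosome. They were taken by symbol, as every gene of the deposited table named Rpl or Rps with a number, Rplp0 to Rplp2 or Rpsa, without pseudogene names and without the S6 kinase genes, which gave 86 of 21041 genes. Of these, 77 form a core of 1 gene per protein, 31 for the small 40S subunit and 46 for the large 60S subunit. The other 9 are Rpl22l1, Rps27l, Rps27rt, Rpl7l1, Rpl3l, Rpl36al, Rpl10l, Rpl39l and Rps19bp1. All but the last are paralogues of core genes. Rps19bp1 encodes a protein that binds Rps19 and is no ribosomal protein, and it met the rule by its name alone.

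Ribosomal proteins assemble with ribosomal RNA in the nucleolus, each subunit needing its proteins in matched amounts, so their genes are usually transcribed and translated together. Their mRNAs start with a run of pyrimidines that places their translation under the control of growth signals through mTOR. In the intestine, dividing crypt cells make more ribosomes than the differentiated cells at the surface. Free Rpl5 and Rpl11, bound to 5S ribosomal RNA, are known to restrain Mdm2 when ribosome assembly fails.

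The cells came from distal colon adenomas of Apcmin;LSL-mTERT mice aged 25 weeks. Apcmin is a truncating Apc allele that gives rise to intestinal adenomas, and LSL-mTERT is a mouse Tert allele kept silent by a stop cassette until Cre removes it. The labels name G0+T and G4+T as the 2 groups, each a single library, and give both the same genotype. They name no Cre driver and do not say how many tumours or mice went into a library. The authors labelled each of 14097 cells CIN_high or CIN_low, for chromosomal instability, and the label follows the library: 6189 cells with the first barcode suffix were CIN_high and 7908 with the second were CIN_low. The cell names do not settle which library was G0+T, so the libraries are called by their class. With 1 library per class there are no replicates, no difference was tested across animals, and a difference can be one between mice, tumour pieces or preparations. The 95% intervals given are exact and reflect counting error alone.

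Levels are UMIs (counted mRNA molecules) of a gene per 10000 UMIs of the cell, averaged across cells. Cells held 801 to 109676 UMIs, with medians of 6448 (CIN_high) and 7154 (CIN_low), and 11 barcodes occurred in both libraries. Members took 13.5% of all UMIs of the CIN_high library and 12.6% of those of the CIN_low library. Each marker of an annotated type was found in at least 10% of that type's cells, except for 1 marker in CIN_low B cells. Of the markers of the Stem_cell_1 subtype, only Lgr5 in the CIN_high library was highest in that subtype, so it is called by the authors' name alone.

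Promoter windows were found for 57 of the 77 core genes in the RefSeq table (GRCm38.p6). Windows are shown for the 4 members on the distal part of chromosome 11, which are followed further in epithelium. Beside them are those of Rpl26, a member nearer the centromere of the same chromosome, and of the paralogue pair Rps27l and Rps27. Each runs from 60 bases before to 10 bases after the transcription start of the RefSeq table, 5′ to 3′ on the gene's strand. The gene start in GENCODE M21 can differ from it. For Rpl27 that start, 101442298, lies beyond the window, as it does for Rpl26, at 68901583. For Rpl38, at 114668524, most of the window lies inside the gene. Motifs placed by the start depend on this choice. Capitals mark CACGTG (the E-box bound by Myc and Max, among others), CCGGAA or its complement TTCCGG (the core of ETS family sites), and CTTT within 20 bases of the start, a piece of the pyrimidine run.
Rpl23, chr11:97782430-97782499, minus strand: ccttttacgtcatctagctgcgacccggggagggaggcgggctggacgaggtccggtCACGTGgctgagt
Rpl19, chr11:98026650-98026719, plus strand: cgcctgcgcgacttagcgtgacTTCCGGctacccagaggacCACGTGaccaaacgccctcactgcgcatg
Rpl27, chr11:101442185-101442254, plus strand: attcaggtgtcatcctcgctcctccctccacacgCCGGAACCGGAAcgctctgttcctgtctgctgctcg
Rpl38, chr11:114668520-114668589, plus strand: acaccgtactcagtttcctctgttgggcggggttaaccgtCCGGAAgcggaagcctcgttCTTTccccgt
Rpl26, chr11:68901506-68901575, plus strand: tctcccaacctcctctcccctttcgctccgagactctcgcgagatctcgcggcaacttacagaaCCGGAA
Rps27l, chr9:66946026-66946095, plus strand: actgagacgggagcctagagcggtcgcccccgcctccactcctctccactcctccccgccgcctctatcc
Rps27, chr3:90213639-90213708, minus strand: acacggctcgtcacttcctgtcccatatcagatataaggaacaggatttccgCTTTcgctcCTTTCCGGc

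The 4 distal windows had no motif in common. Rpl19 and Rpl23 held CACGTG, Rpl19, Rpl27 and Rpl38 held CCGGAA or its complement, and Rpl38 held CTTT at its RefSeq start. Over full windows of 250 bases before to 50 bases after the start, CCGGAA on either strand was found in 56.1% of the 57 core genes and in 16.7% of all genes in the table. CTTT between 5 bases before and 5 bases after the start was found in 17.5% of core genes and 4.49% of all genes, and within 20 bases in 40.4% and 18.2%. CACGTG was found in 10.5% and 8.09%. TATAAA between 40 and 20 bases before the start was found in 0 of the 57 core genes and in 2.31% of all genes. No motif was found in the Rps27l window shown, and in that of Rps27 a CTTT overlaps TTCCGG.

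The first question was how much of the captured mRNA codes for ribosomal proteins in each cell type. T and NK cells, B cells and epithelial cells had the highest summed levels, and stromal cells were among the lowest. In the CIN_high library the summed level of the 86 genes was 1779 UMIs per 10000 in B cells, 1420 in T and NK cells, 1364 in epithelial cells, 1031 in myeloid cells, 956 in fibroblasts, 902 in endothelial cells and 873 in pericytes. In the CIN_low library it was 1322 in T and NK cells, 1314 in epithelial cells, 1229 in B cells, 822 in pericytes, 821 in myeloid cells, 694 in fibroblasts and 652 in endothelial cells. The B cells were few, 40 and 93, as were CIN_low fibroblasts (21), so no ratio of levels between the libraries is given for these 2 types.

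Between cells of 1 type the level varied widely. In CIN_high epithelial cells it ran from 513 at the 10th percentile to 2174 at the 90th, and in CIN_low epithelial cells from 571 to 2102. In CIN_high T and NK cells it ran from 259 to 2485, so the ranges of neighbours in this order overlapped. The 46 core genes of the large subunit summed to more than the 31 of the small subunit in every type. The 60S to 40S ratio of the sums ran from 1.21 (CIN_high B cells) to 1.39 (CIN_low fibroblasts). The 60S list holds more genes, so this ratio does not compare the levels per gene.

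**Figure D1:**
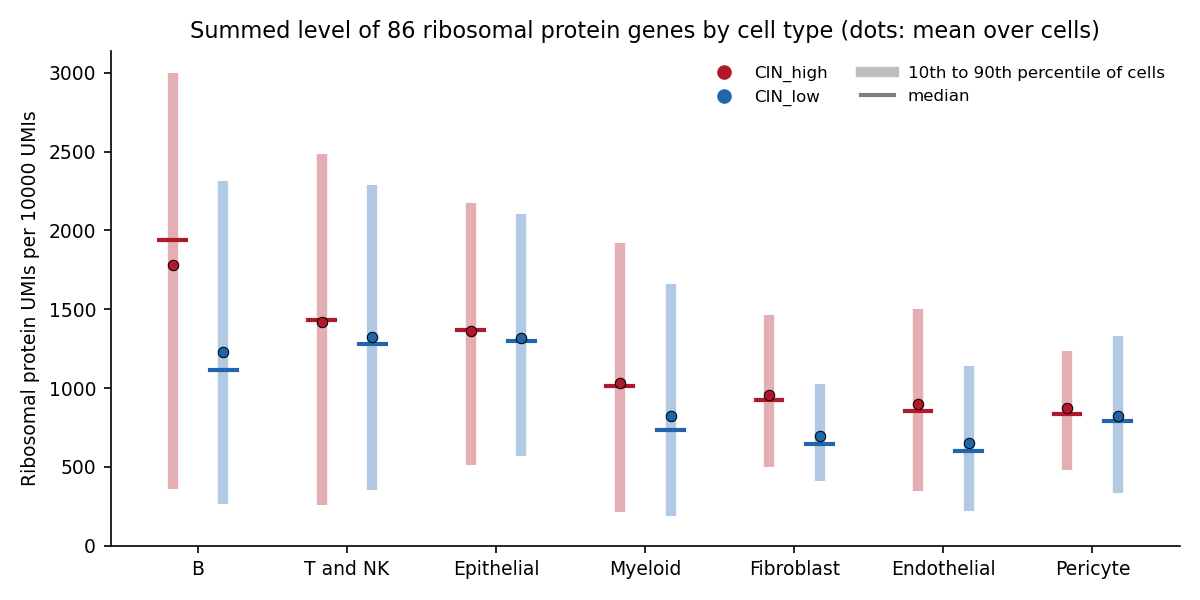
Summed level of the 86 ribosomal protein genes (y axis, UMIs per 10000 UMIs of the cell) by cell type, CIN_high in red and CIN_low in blue. Dots are means over cells, lines medians and bars the 10th to 90th percentile of cells; the means of epithelial, T and NK cells and pericytes lay close together in the libraries and the bars overlapped in every type.

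Within the epithelium the level followed the authors' subtypes. Proliferating cells, marked by Mki67, Top2a and Cdk1, were highest at 1743 (CIN_high, 111 cells) and 1672 (CIN_low, 199 cells). Their level was 1.28 times that of the largest subtype, Cancer_cell_1, in each library. Stem_cell_1 followed at 1501 and 1470, then Cancer_cell_1 at 1356 and 1301. Complement-positive stem cells stood at 1342 and 1302. Secretory cells, which held the highest Muc2 and Spink4 levels, stood at 1234 and 997. Cells named for the cell cycle inhibitor p57 stood at 1027 and 1051. Enterocytes, marked by Car1, Slc26a3 and Krt20, were lowest among the subtypes compared, at 905 (107 cells) and 971 (98 cells), which is 0.667 and 0.746 of Cancer_cell_1. Proliferating cells were also the deepest, with medians of 24594 and 24592 UMIs, against 11318 and 15249 in enterocytes and 10078 and 11023 in p57-positive cells. Across 3 equal bins of all epithelial cells by depth the summed level went from 973 to 1404 and 1791 in the CIN_high and from 936 to 1280 and 1675 in the CIN_low library, a wider span than that between proliferating cells and Cancer_cell_1. The part of depth in the order of subtypes was not tested.

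**Figure D2:**
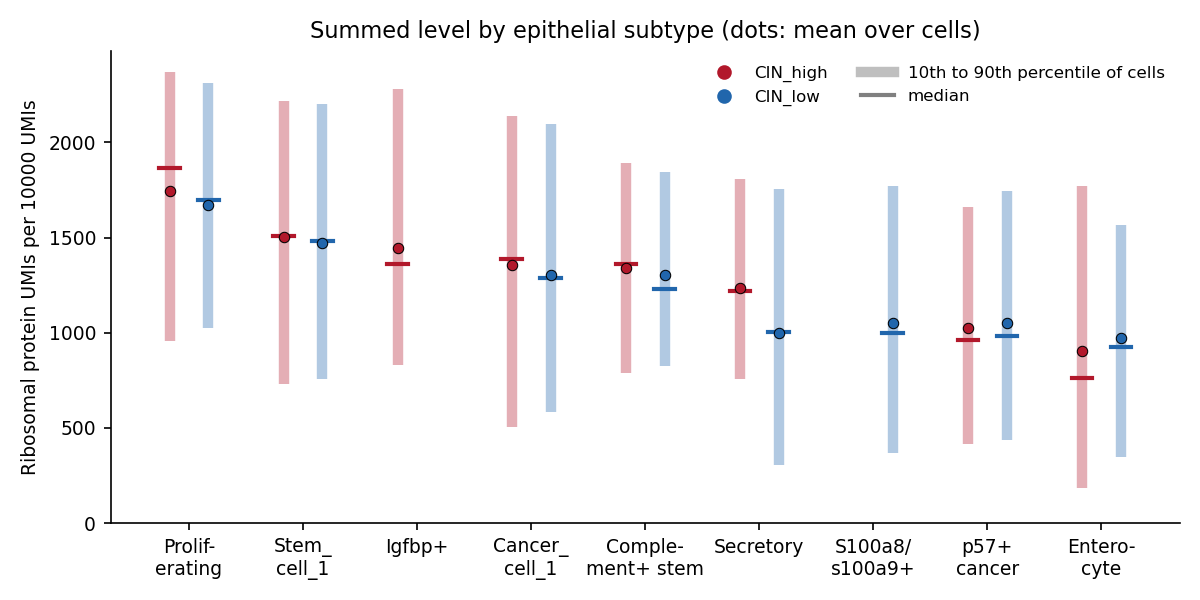
Summed level of the 86 genes (y axis, UMIs per 10000) by epithelial subtype, with dots, lines and bars as means, medians and the 10th to 90th percentile of cells. Proliferating cells sit highest and enterocytes lowest in both libraries; the Igfbp+ subtype has cells in the CIN_high library alone, and the 8 CIN_high cells of the S100a8 subtype are not drawn.

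The next comparison set the CIN_high against the CIN_low library within each type with at least 50 cells on each side. Measured genes are those seen in 2% or more of a library's cells, and a gene is called higher or lower once the ratio reaches 1.5-fold. In epithelium, ribosomal protein mRNA summed to 1364 against 1314 UMIs per 10000, a ratio of 1.04 (1.03 with summed UMIs, counting interval 1.03 to 1.03). Within bins of mitochondrial share the ratio was larger: 1.05 in cells under 10% (1683 and 1597), 1.14 at 10 to 20% (1307 and 1147) and 1.24 at 20% or more (828 and 669). The last bin held 217 of 1316 CIN_high and 162 of 1725 CIN_low cells. In 3 equal bins by depth the ratio was 1.04, 1.10 and 1.07. Of 83 measured members 0 were higher and 0 lower, where 4.16% of all 13304 measured genes were higher and 7.7% lower. Most members are found in nearly all cells, and among the 3254 genes found in 50% or more of the cells 0.492% were higher and 0.86% lower. A count of 0 is near that background.

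The smaller differences leaned upward. The core genes had a median log2 ratio of 0.04, against -0.10 over all measured genes, and 52 of 83 measured members had a ratio above 1, against 28.0% of the genes found in at least 50% of cells. At a lower line, a difference of 25%, 2 members (2.41%), Rpl38 and Rpl19, were higher and 0 lower. By that line 8.87% of measured genes were higher and 19.5% lower. Of the genes in at least 50% of cells 2% were higher and 7.04% lower, so the members' share of higher genes is near that background. The median was 0.05 for the small subunit and 0.04 for the large. Neutrophil genes had a lower sum in the CIN_high library over the same cells: the 8 listed summed to 6.54 and 18.0 UMIs per 10000. The subtype named for S100a8 and S100a9 (8 and 36 cells) carried 60.03% and 60.2% of these sums, and without it they were 2.63 and 7.33. Their part in the members' ratios was not tested.

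By role, the stalk proteins Rplp0, Rplp1 and Rplp2, which recruit elongation factors, summed to 70.2 in CIN_high and 67.1 in CIN_low epithelium. Rpl5, of the 5S particle, stood at 9.02 and 9.18, and its partner Rpl11 at 19.3 and 19.8. Rps6, the target of the S6 kinases, stood at 10.4 and 10.2. Rpsa, also known as a laminin receptor, stood at 21.5 in both. None of these moved by more than 0.10 on the log2 scale in epithelium.

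**Figure D3:**
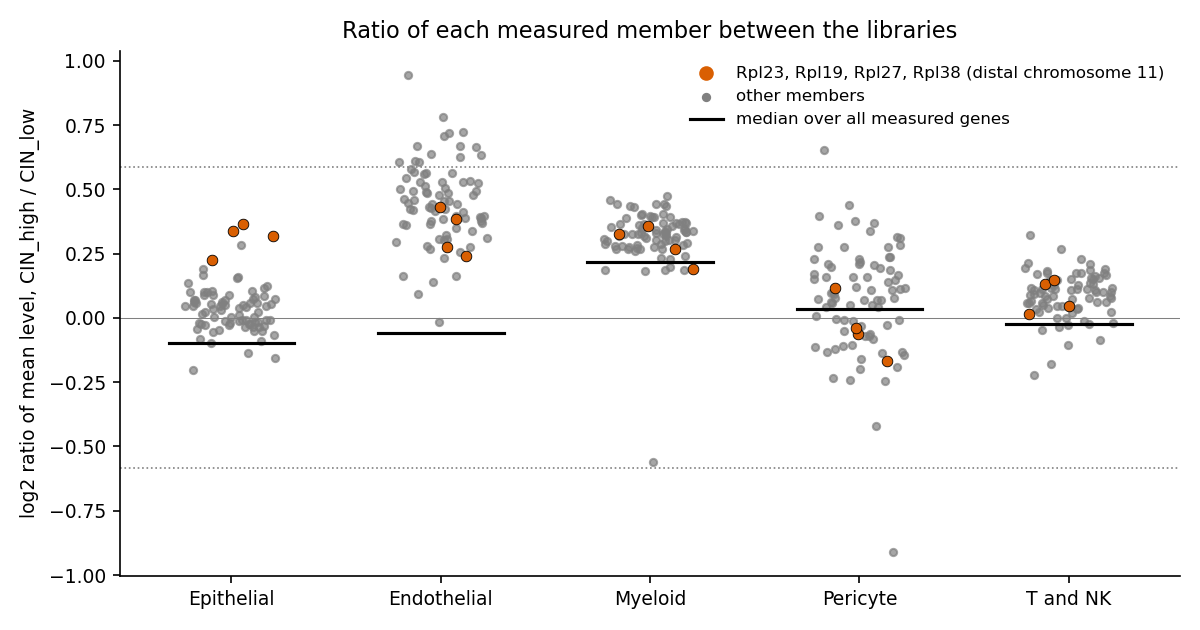
Log2 ratio of the mean level, CIN_high over CIN_low (y axis), for each measured member by cell type, with the 4 members of distal chromosome 11 in orange, the median over all measured genes as a black line and dotted lines at 1.5-fold. The orange points lie at or near the top of the epithelial members, and in the other types they lie among or below the rest.

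The members with the highest epithelial ratios were Rpl38, Rpl19, Rpl23, Rps27l and Rpl27, and 4 of these 5 lie in the last part of chromosome 11. Rpl38, a 60S protein known from mouse mutants for its role in translating Hox mRNAs, had 16.6 UMIs per 10000 in the CIN_high and 12.9 in the CIN_low epithelium (log2 0.37, ratio of summed UMIs 1.28 to 1.32). Rpl19 stood at 31.8 and 25.1 (log2 0.34, 1.27 to 1.29). Rpl23, which is also known to bind Mdm2, stood at 32.3 and 25.9 (log2 0.32, 1.24 to 1.26). Rpl27 stood at 14.5 and 12.4 (log2 0.23, 1.17 to 1.21). Each was higher in the CIN_high library beyond its counting interval and under the 1.5-fold line. Rps19, mutated in Diamond-Blackfan anaemia, stood at 22.9 and 20.0 (log2 0.19) and Rps21 at 14.9 and 13.3 (0.16).

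At the other end, Rpl10, which joins the 60S subunit last, stood at 10.1 and 11.6 (log2 -0.20, 0.831 to 0.857). Rpl7a stood at 9.02 and 9.92 (-0.14), Rpl23a at 9.19 and 9.83 (-0.10), Rpl15 at 17.6 and 18.6 (-0.08), Rps27 at 9.46 and 9.90 (-0.06) and Rpl29 at 8.59 and 8.92 (-0.05). Rpl7l1, a relative of Rpl7, stood at 0.500 and 0.532 (-0.09). Rps27rt had a log2 ratio of -0.15, but its coding sequence matched that of Rps27 at 100% of 255 bases, so the counting could split reads between them and its value is uncertain.

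The distal chromosome 11 members were followed further; they, the line at 90 Mb and the share of 8% used below were chosen after the ratios had been seen. In GENCODE M21 coordinates of mm10, Rpl23 lies at 97777527 to 97782437, Rpl19 at 98026710 to 98030492, Rpl27 at 101442298 to 101445529 and Rpl38 at 114668524 to 114672331 of chromosome 11, all annotated as protein-coding. The 3 members nearer the centromere, Rps27a, Rpl26 and Rpl23a, start at 29545846, 68901583 and 78180932. Their epithelial log2 ratios were 0.05, -0.02 and -0.10. The 71 members on other autosomes with a UMI in 20% or more of cells had a median of 0.04, with a highest value of 0.28 (Rps27l).

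Genes beside these members showed the same break along the chromosome. Among other genes found in 20% or more of a library's epithelial cells, the 245 from 90 Mb onward had a median log2 ratio of 0.13 and 80.8% had a ratio above 1. The 381 before 90 Mb had a median of -0.10 and 25.2% above 1, and 6715 on other autosomes a median of -0.10 and 28.1%. In windows of 10 Mb the median ran between -0.17 and -0.08 from the start of the chromosome to 80 Mb, was -0.02 from 80 to 90 Mb and lay between 0.12 and 0.17 in each of the 4 windows beyond. The rise in these other genes thus lay between the positions of Rpl23a and Rpl23.

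Taken as a share of ribosomal protein UMIs, which does not depend on the cell's total, the 4 distal members made up 7.03% in CIN_high and 5.73% in CIN_low epithelium, a ratio of 1.23 (1.22 to 1.23). The 3 proximal members went from 3.62% in CIN_low to 3.44% in CIN_high epithelium, a ratio of 0.950. Members on the other chromosomes with at least 2 members had ratios of share between 0.946 (chromosome X) and 1.02 (chromosome 7). The distal difference was largest in Stem_cell_1 at 1.38 (1.36 to 1.39), followed by secretory cells at 1.32 (1.28 to 1.37), proliferating cells at 1.22, Cancer_cell_1 at 1.15, complement-positive stem cells at 1.14 and p57-positive cells at 1.08 (1.05 to 1.11). In enterocytes it was 0.980 (0.952 to 1.01). Outside the epithelium the ratio was 0.984 (0.961 to 1.01) in T and NK cells, 0.972 in myeloid cells, 0.952 in pericytes and 0.923 (0.896 to 0.951) in endothelial cells. In the types with few cells it was 1.05 (1.003 to 1.104) in B cells (40 and 93 cells) and 1.01 (0.942 to 1.08) in fibroblasts (966 and 21 cells). Differences between these ratios were not tested.

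Single members followed suit within subtypes. In Stem_cell_1, Rpl23 stood at 39.3 and 27.0 UMIs per 10000, Rpl19 at 38.8 and 27.6, Rpl38 at 21.1 and 15.4 and Rpl27 at 17.1 and 13.0, ratios between 1.31 and 1.45. In enterocytes the 4 stood between 7.70 and 18.8 in CIN_high and between 9.09 and 21.2 in CIN_low cells, all with ratios between 0.847 and 0.886. In secretory cells 5 of 84 measured members were at least 1.5-fold higher, namely Rpl38 (21.1 and 11.1), Rpl19 (29.4 and 17.7), Rpl27 (13.9 and 8.54), Rpl23 (33.9 and 21.3) and the uncertain Rps27rt, and 0 were lower. In these cells 14.4% of all measured genes were higher and 18.6% lower, with 54 and 48 cells, so the count of members lies below that share. That background takes in genes found in as few as 2% of the cells. Rpl38, Rpl19, Rpl27 and Rpl23 were each found in 93.75% or more of the secretory cells of each library. A background of widely found genes is not given for this subtype. The core as a whole leaned upward there. Of 77 core genes 74 had a ratio above 1, with a median log2 ratio of 0.27, against -0.08 over all measured genes. By summed UMIs 2 passed the line, Rpl38 (1.69) and Rpl19 (1.57), with Rpl23 at 1.49 and Rpl27 at 1.47.

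The distribution over cells differed in shape as well as in its centre. Among epithelial cells with at least 500 ribosomal protein UMIs, the 10th percentile, median and 90th percentile of the distal share were 5.12%, 6.37% and 9.85% in 1109 CIN_high cells, and 4.96%, 5.78% and 6.87% in 1498 CIN_low cells. The lower ends lay close together and the upper ends far apart. A share of 8% or more was found in 299 CIN_high cells (27.0%) and in 22 CIN_low cells (1.47%). In Stem_cell_1 it was found in 146 of 312 CIN_high cells (46.8%) and 1 of 303 CIN_low cells (0.330%), and in secretory cells in 21 of 45 and 0 of 31. In enterocytes the counts were 3 of 64 and 3 of 66. In p57-positive cells they were 6 of 58 (10.3%) and 8 of 163 (4.91%), and outside the epithelium T and NK cells had 15 of 118 (12.7%) and 16 of 209 (7.66%), myeloid cells 4.66% and 7.23%. The median number of ribosomal protein UMIs in the epithelial cells used was 2284 and 2306; over all epithelial cells the median of other UMIs in the CIN_high library was 0.876 of that in the CIN_low library. For the members of every other chromosome with at least 2 members, the 90th percentile of CIN_high cells was at most 1.31 times the median, against 1.55 for the distal members and 1.19 for the same members in CIN_low cells.

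**Figure D4:**
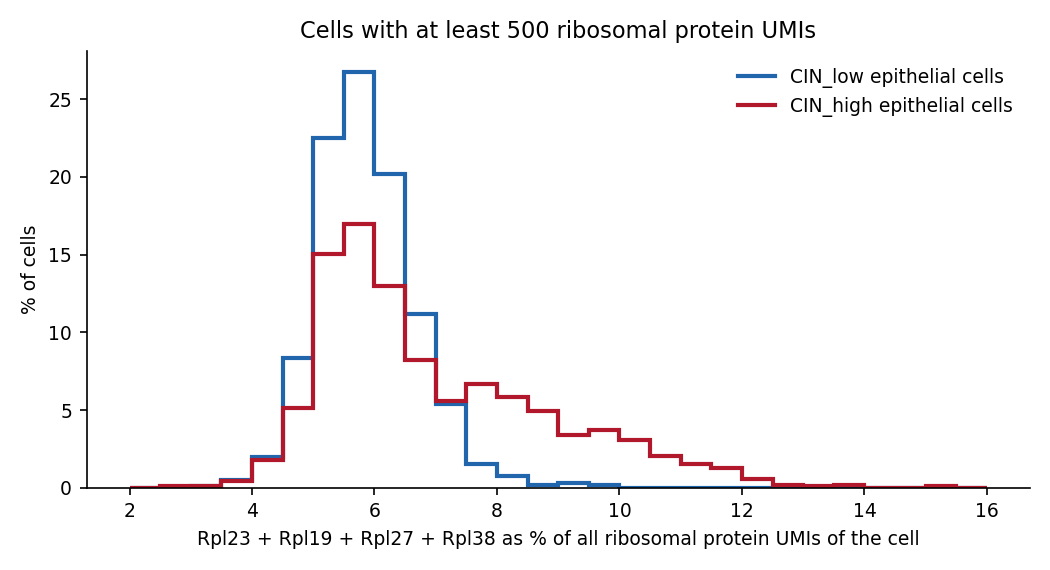
Share of each epithelial cell's ribosomal protein UMIs that came from Rpl23, Rpl19, Rpl27 and Rpl38 (x axis, %), as the percentage of cells per bin (y axis), for cells with at least 500 ribosomal protein UMIs. CIN_high cells (red, 1109) have a tail up to 15.0%, with 299 cells at 8% or more, against 22 of the CIN_low cells (blue, 1498).

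Other genes of the same stretch varied together with the members from cell to cell. Over the CIN_high epithelial cells, the members' share correlated with the share of all other genes from 90 Mb onward, taken of non-ribosomal and non-mitochondrial UMIs, at r = 0.65 (n = 1109 cells of 1 library). With the other genes before 90 Mb r was 0.00034. In the CIN_low cells the values were -0.21 and -0.07 (n = 1498). Within Stem_cell_1 alone r was 0.66 in CIN_high and 0.06 in CIN_low cells, and within Cancer_cell_1 it was 0.72 and -0.18. In myeloid cells it was -0.15 and -0.19 and in endothelial cells 0.01 and -0.0017. CIN_high epithelial cells with a member share of at least 8% had 5.30% of their other UMIs from distal genes and 5.31% from proximal ones. Those with a share between 5% and 6% had 3.49% and 5.37%. The median depths of these cells were 17068 and 17421 UMIs. These are descriptions of cells that share a library, with no test across animals.

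Rps27l was the remaining member among the 5 highest in epithelium. It encodes a close relative of Rps27 that is known as a p53 target, and its coding sequence matched that of Rps27 at 76.1% of 255 bases, so the pair can be counted apart. Rps27l had 5.16 UMIs per 10000 in the CIN_high epithelium and 4.24 in the CIN_low one (log2 0.28, ratio of summed UMIs 1.16 to 1.21), while Rps27 stood at 9.46 and 9.90. Within subtypes Rps27l was at 5.54 and 4.32 in Cancer_cell_1, 5.37 and 4.47 in Stem_cell_1, 6.86 and 5.74 in proliferating cells, 4.11 and 3.22 in secretory cells, 3.31 and 3.00 in p57-positive cells and 3.25 and 3.57 in enterocytes. It was higher in the CIN_high library in each of these but enterocytes. In T and NK cells it stood at 1.62 and 1.72 and in endothelial cells at 1.42 and 1.29, with counting intervals that include 1.

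The other paralogues differed little. Rpl22l1, whose coding sequence matched that of Rpl22 at 70.2% of aligned bases, stood at 5.97 and 5.67 in epithelium, and Rpl22 at 9.68 and 9.42. Rpl36al (87.9% identical to Rpl36a) stood at 5.58 and 5.62. Rpl10l and Rpl39l, known from the testis, had 0 UMIs in CIN_high epithelium, and Rpl39l had 6 in CIN_low epithelium. Rpl3l, a muscle form of Rpl3, had 3 and 8 UMIs there. These 3 were not measured in epithelium, endothelium or T and NK cells.

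In endothelial cells ribosomal protein mRNA was higher in the CIN_high library across nearly the whole set. The summed level was 902 UMIs per 10000 in 602 CIN_high cells and 652 in 247 CIN_low cells, a ratio of 1.38 (1.30 with summed UMIs, 1.29 to 1.31). Of 83 measured members 14 were at least 1.5-fold higher and 0 lower, where 12.8% of all measured genes were higher and 19.6% lower, and 5.53% and 6.56% of the genes in at least 50% of cells. At the 25% line 66 were higher, against 24.3% of measured genes and 21.9% of those in at least 50% of cells. All 77 core genes had a ratio above 1, and their median log2 ratio was 0.45, against -0.06 over all measured genes. The 14 were 9 of 31 small subunit and 5 of 46 large subunit genes, with medians of 0.50 and 0.42. The count is sensitive to how cells are weighted, with 4 past the line by summed UMIs: Rps21, Rpl21, Rps6 and Rpl30. It was 24 with mitochondrial and ribosomal protein UMIs left out of each cell's total.

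Rps21, a small subunit protein, had the highest ratio, 13.3 UMIs per 10000 against 6.89 in CIN_low endothelial cells (log2 0.95, 1.66 to 1.91). Rpl21 stood at 9.61 and 5.59 (log2 0.78, 1.52 to 1.77) and Rpl30 at 11.9 and 7.22 (0.72, 1.40 to 1.61). Rps6 stood at 12.4 and 7.55 (0.72). At the low end Rpl7l1 stood at 0.362 and 0.366, Rpl7a at 4.67 and 4.38 (0.09) and Rps27l at 1.42 and 1.29 (0.14). The distal chromosome 11 members all lay below the core median here, between 0.24 (Rpl27) and 0.43 (Rpl23).

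The endothelial difference was found at each depth: with the cells in 3 equal bins by depth, the ratio of the summed level was 1.39, 1.53 and 1.41. It was 1.29 in cells with under 10% mitochondrial UMIs and 1.55 at 10 to 20%. Without the cells that held at least 2 of 5 lymphatic markers it was 1.42. The median cell held 1.19 times as many ribosomal protein UMIs in the CIN_high library and 0.822 times as many other UMIs. Neutrophil genes summed to 10.1 in CIN_high and 50.0 in CIN_low endothelial cells, and all 8 listed were at least 1.5-fold lower in CIN_high cells; their part in the difference was not tested.

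Myeloid cells also had more ribosomal protein mRNA in the CIN_high library, 1031 against 821 UMIs per 10000, a ratio of 1.26 (1.22 with summed UMIs). Of 84 measured members 0 were higher and 0 lower at 1.5-fold, with 7.83% of all measured genes higher and 3.3% lower, and 0.971% and 5.07% among genes in at least 50% of cells. At the 25% line 47 were higher, against 31.7% of measured genes and 14.3% of those in at least 50% of cells, and 1 was lower (Rpl3l, against 6.9%). The core median was 0.33 and that of all measured genes 0.22. The core log2 ratios ran from 0.18 to 0.47. Rpl3 stood at 8.40 and 6.05 (log2 0.47), Rpl10a at 7.40 and 5.39 (0.46) and Rpsa at 14.4 and 10.6 (0.44). The lowest were Rpl23a at 7.65 and 6.74, Rpl31 at 4.94 and 4.34 and Rpl10 at 11.1 and 9.79.

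The make-up of the myeloid class also differed between the libraries, and its part in the difference in level was not tested. Cells with UMIs of at least 3 of 6 neutrophil genes and fewer than 2 of 3 C1q genes were 21.8% of CIN_high and 38.6% of CIN_low myeloid cells. Their ribosomal protein level was far below that of the rest: 314 (CIN_high, 640 cells) and 338 (CIN_low, 2064 cells). Cells with all 3 C1q genes, the macrophage complement genes, stood at 1224 and 1102, and the remaining cells at 1238 and 1137. Within these ranges the ratio was 0.928, 1.11 and 1.09. These are ranges of marker detection and not cell types, and 1793 myeloid cells had exactly 2 or 3 of the 6 neutrophil genes. Within the neutrophil range 8 of 84 measured members were lower and 1 higher at 1.5-fold, with 14.5% and 18.2% of all measured genes past the line. Among the 8 were Rpl22l1 (0.345 and 0.660), Rpl3 (1.03 and 1.73) and Rps18 (1.51 and 2.47), and the 1 higher was the uncertain Rps27rt. The core as a set leaned downward in this range, with 65 genes below a ratio of 1 and 12 above. Its median log2 ratio was -0.19, against 0.10 over all measured genes.

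The summed level differed less in pericytes and in lymphocytes of the T and NK class. Pericytes stood at 873 (83 cells) and 822 (58 cells), a ratio of 1.06 that turned to 0.985 with summed UMIs. Of 84 measured members 1 was higher, Rps21, and 1 lower, Rpl7l1, where 21.6% of measured genes were higher and 19.2% lower, and 6.48% and 18.1% of those in at least 50% of cells. Rps21 stood at 13.0 and 8.24 (log2 0.65, 1.14 to 1.44), and Rpl7l1 at 0.253 and 0.475 on 21 and 25 UMIs, with a counting interval of 0.504 to 1.76. Rpl4 stood at 5.11 and 3.76 and Rpl7 at 9.66 and 7.35, while Rplp0 stood at 9.58 and 11.3 and Rps18 at 7.90 and 9.35. Depth differed between the libraries here, with medians of 5345 and 8835.5 UMIs, and the ratio was 1.61, 1.27 and 0.961 from the shallowest to the deepest of 3 equal bins. The shallowest bin held 11 and the middle one 17 CIN_low cells. The 5 pericyte markers summed to 67.4 and 140.0 in these cells and the 5 fibroblast markers to 32.9 and 61.1. Only 15 and 3 pericytes were free of signs of possible doublets, and the part of other cells' RNA was not tested.

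T and NK cells stood at 1420 (234 cells) and 1322 (414 cells), a ratio of 1.07. The ratio turned to 0.995 without cells that held UMIs of 2 or more markers of another lineage and without the deepest 5% of each library. It was 0.922, 1.09 and 1.13 from the shallowest to the deepest of 3 equal bins. Of 83 measured members 0 were higher and 0 lower, against 13.4% and 16.8% of measured genes and 0.151% and 3.92% of those in at least 50% of cells. The core median was 0.10, with -0.02 over all measured genes. Rpl35 stood at 11.4 and 9.46 (log2 0.27), Rps21 at 17.6 and 15.0 (0.23) and Rplp1 at 30.4 and 26.2 (0.21). Rpl7l1 stood at 0.274 and 0.319, Rpl7a at 7.48 and 8.47 (-0.18) and Rpl28 at 15.7 and 16.9 (-0.11). Rps21 was thus higher in the CIN_high library in all 5 types. Its ratios were 1.12, 1.93, 1.35, 1.57 and 1.17 in epithelium, endothelium, myeloid cells, pericytes and the T and NK class. A ratio above 1 was common among the members and is not particular to Rps21. In the same order of types, 52 of 83, 82 of 83, 83 of 84, 54 of 84 and 71 of 83 measured members had one.

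The last comparison asked which members make up a different part of the total in different cell types. A member's share of the summed level is used, so that the overall difference between types drops out. Over 80 members the log2 range of the share across the 5 types had a median of 0.36, taking for each member the smaller range of the 2 libraries. Rps27l had the largest range. Its share was 0.378% in CIN_high and 0.323% in CIN_low epithelium and fell to 0.114% and 0.130% in T and NK cells. Rps15a was highest in T and NK cells at 1.93% and 2.04%, against 1.18% in epithelium of both libraries and 1.07% and 1.11% in endothelium. Rps9 and Rps29 were highest in myeloid cells, Rps9 at 2.64% and 2.73% with 1.71% and 1.67% in epithelium, and Rps29 at 2.27% and 2.26% with 1.31% and 1.37% in epithelium. Rpl10a was highest in epithelium at 1.05% and 1.02%, with 0.572% and 0.601% in endothelium. For these 5 members the type with the highest share was the same in both libraries.

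**Figure D5:**
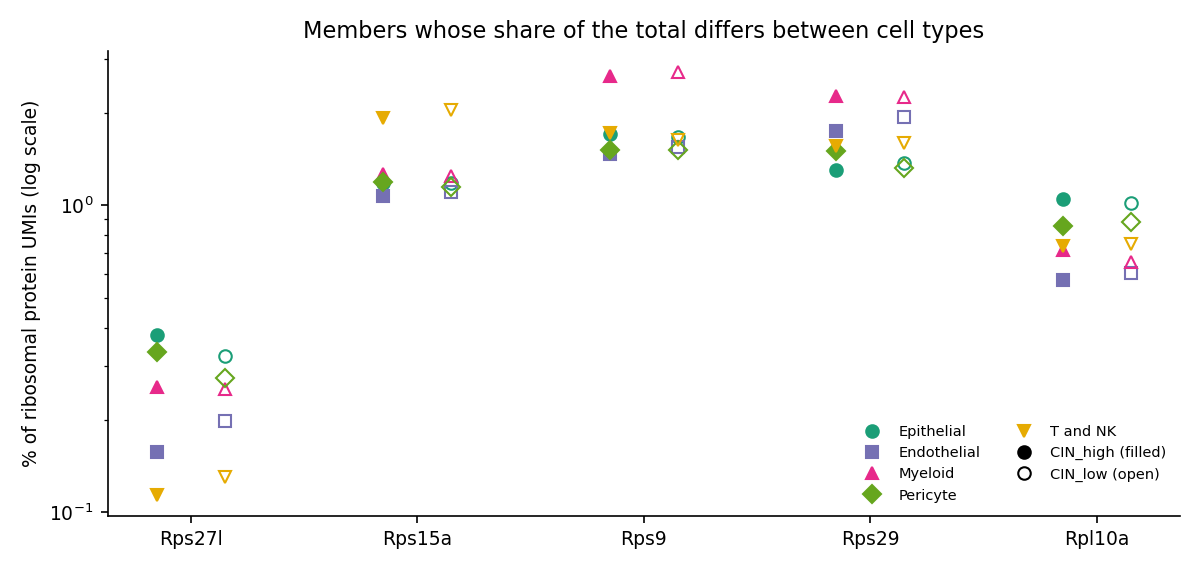
Share of the summed ribosomal protein level (y axis, %, log scale) of Rps27l, Rps15a, Rps9, Rps29 and Rpl10a in 5 cell types, CIN_high filled and CIN_low open, each symbol 1 library. For each member the type at the top is the same in both libraries, for example T and NK cells for Rps15a at 1.93% and 2.04%.

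Genes that act on or beside the ribosome were read from lists that stand outside the 86. In epithelium 0 of 40 translation factors, 0 of 46 ribosome biogenesis genes, 0 of 78 mitochondrial ribosomal protein genes, 0 of 12 RNA polymerase I genes and 0 of 10 snoRNA host genes were past 1.5-fold in either direction. Of the biogenesis genes 39 of 46 had a ratio below 1, as had 66.5% of all measured genes, with a median log2 ratio of -0.18, lower than the -0.10 over all measured genes, while the core ribosomal protein genes stood at 0.04. Ppan stood at 0.224 and 0.305 UMIs per 10000 and Rrs1, needed for 5S particle assembly, at 0.399 and 0.522. The translation factors had a median of -0.08 and the mitochondrial ribosomal protein genes one of -0.04. Among 15 growth regulators 1 was higher and 1 lower, near the 4.16% and 7.7% of all measured genes: Sesn2, a stress-induced inhibitor of mTOR complex 1, stood at 0.278 and 0.142, and Mycn at 0.0119 and 0.0254. Myc, a known activator of ribosome genes, stood at 0.395 and 0.519 (log2 -0.40). Fau, which encodes a ribosomal protein under a symbol the rule does not cover, stood at 20.6 and 19.8.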

How the data were processed

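The submitters' processing notes name Cell Ranger 2.1.1, Seurat and mm10. The sources used here do not give cell filters, strand setting or doublet treatment. The authors deposited 1 matrix on the natural log scale with a class, type and subtype per cell. Its values are ln(1 + UMIs per 10000), and 100% were whole UMIs within 0.01 once unlogged. The design assumed counts or linear values, and the linear means it foresaw were used. Cells were not assigned to G0+T or G4+T, because the prefix of all cell names matches 1 title and the suffixes match both.

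Ratios are of means over cells. Where 1 side had no UMI, 3 UMIs stood in for it. Intervals are exact conditional binomial ones. No p-value was computed and no doublet caller was run. Named were the 8 epithelial members (3 in other types) with the largest ratio each way, seen in 10% or more of the cells and with 30 UMIs or more in all, the 6 with the widest range across types, and members of known role; some of these are not reported here. Members, lists and lines were chosen with earlier results of these data known. Paralogues were compared by coding sequence (GENCODE M21), as proteins were not used here. Alternatives for scaling, depth, filter, doublets and subtype mix are in the closing section. Functions were tested on simulated data. Python 3.11.15, numpy 2.4.6, pandas 2.3.3, SciPy 1.17.1 and matplotlib 3.10.9 were used.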

Additional observations from a re-analysis of the deposited data

How the results depend on the processing

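No paired analysis was possible because each class is 1 library. Of the alternatives to a reported value, 49 kept direction and size, 86 moved the value by more than its counting interval or a count by over 1.5 times, and 9 turned the direction; the cause was not tested. The alternatives by position, marker range and left-out member, and summed UMIs by subtype, were chosen after seeing the data.

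With summed UMIs the ratio of the summed level was 1.03 in epithelial, 1.30 in endothelial, 1.22 in myeloid and 1.13 in T and NK cells, and it turned to 0.985 in pericytes. The core medians were then 0.012 in epithelial, 0.28 in myeloid and 0.18 in T and NK cells and turned to -0.023 in pericytes, 4 endothelial members passed 1.5-fold, Rps27l stood at a ratio of 1.19 and Rps19bp1 turned to 0.981. By subtype the ratio was 1.04 in Cancer_cell_1, 1.03 in proliferating, 0.954 in p57-positive, 0.978 in enterocyte, 1.05 in complement-positive and 1.17 in secretory cells, turned to 0.993 in Stem_cell_1, and 2 secretory members passed 1.5-fold. With mitochondrial and ribosomal protein UMIs left out of the total, the ratio was 1.07 in epithelial, 1.44 in endothelial, 1.31 in myeloid, 1.08 in pericyte and 1.10 in T and NK cells. By subtype it was 1.08 in Cancer_cell_1, 1.07 in Stem_cell_1, 1.08 in proliferating, 0.957 in enterocyte, 1.06 in complement-positive and 1.28 in secretory cells. The core medians were 0.10 in epithelial and 0.39 in myeloid cells, 24 endothelial members passed 1.5-fold, and the RNA polymerase I median turned to 0.022.

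With cells thinned to 3000 UMIs the ratio was 1.04 in epithelial, 1.35 in endothelial, 1.31 in myeloid, 1.03 in pericyte and 1.12 in T and NK cells. It was 1.04 in Cancer_cell_1, 1.01 in Stem_cell_1 and 1.05 in proliferating cells, and turned to 1.02 in enterocytes. The thinned summed levels in CIN_high and CIN_low cells were 1370.2 and 1317 (epithelial), 939.6 and 697 (endothelial), 965 and 713 (fibroblast), 892 and 869 (pericyte), 1181 and 905 (myeloid), 1849 and 1646 (T and NK) and 2129 and 1356 (B cell). With mitochondrial UMIs out of the total they were 1551 and 1467, 973 and 702, 1009 and 748, 943 and 878, 1099 and 863, 1512 and 1405, and 1981 and 1322 in the same order.

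Without possible doublets the ratio was 1.06 in epithelial, 1.37 in endothelial and 1.29 in myeloid cells, turned to 0.995 in T and NK cells, where 1 member passed 1.5-fold, and could not be given for pericytes. With the subtype mix made equal it was 1.03 in epithelium, and the RNA polymerase I median turned to 0.013. Without the S100a8 and Igfbp subtypes it was 1.03. Without endothelial cells of 2 or more lymphatic markers it was 1.42. In the myeloid neutrophil range alone it turned to 0.928 and in the C1q range it was 1.11.

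At a line of 25% 2 epithelial, 66 endothelial, 48 myeloid and 9 pericyte members passed in either direction. The 48 were 47 higher and 1 lower, and the 9 were 7 higher and 2 lower. In pericytes 30.7% of all measured genes were higher and 27.9% lower by that line. Of the genes in at least 50% of pericytes 16.8% were higher and 32.1% lower. Without a detection filter 1 epithelial, 1 myeloid and 1 T and NK member passed 1.5-fold. The ratio of the distal share in epithelium was 1.17 as a mean over cells, 1.21 without possible doublets, 1.19 with the subtype mix made equal, 1.24 without Rpl23 and 1.24 without Rpl27.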

Other observations

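Outside the epithelium the genes around the ribosome followed the ribosomal proteins in part. In endothelial cells, where the core genes had a median log2 ratio of 0.45, translation factors had one of 0.19, ribosome biogenesis genes 0.18 and mitochondrial ribosomal protein genes 0.16, against -0.06 over all measured genes. RNA polymerase I genes stood at -0.31 there. In myeloid cells these 4 lists had medians of 0.22, 0.26, 0.24 and 0.29, near the 0.22 of all measured genes.

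In enterocytes 55 of 77 core genes had a ratio below 1, with a median of -0.11, near the -0.10 of all measured genes, and mitochondrial ribosomal protein genes had a median of -0.27. In secretory cells 74 of 77 core genes had a ratio above 1 (median 0.27, and -0.08 over all measured genes), while ribosome biogenesis genes had a median of -0.26.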
